A study of Mus musculus with 2 samples.

Results

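The RNA of 10 basement membrane genes was followed across the cell types of the mouse heart: the type IV collagen genes Col4a1 and Col4a2, the laminin alpha chain genes Lama2, Lama4 and Lama5, the beta chain genes Lamb1 and Lamb2, the gamma chain gene Lamc1 and the nidogen genes Nid1 and Nid2. They were chosen by symbol and not ranked by their counts, though earlier results of these data were known. All 10 were among the 55357 genes listed in the files. The data were unique molecular identifier (UMI) counts, in which each captured RNA molecule is counted 1 time per droplet barcode, from 2 droplet libraries of C57BL/6 hearts, and no transgene or deleted allele was named for either. The Sham library came from mice whose aorta was not constricted. The labels describe a sham operation, whereas the design text of the deposit speaks of uninjured animals, and neither gives their age or sex. The TAC library came from male mice that had the aortic arch ligated at 8 weeks of age (transverse aortic constriction, a model of pressure overload) and kept the ligature for 6 weeks. Cells of 3 to 5 hearts were combined in each library and there was no replicate library, so no test was possible, and all intervals below are 95% intervals that cover counting error only.

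A basement membrane is a thin sheet of extracellular matrix on which a cell rests or in which it is wrapped. Laminins, each a trimer of an alpha, a beta and a gamma chain, assemble on the cell surface and bind integrins and dystroglycan. Type IV collagen forms a covalently linked network, and nidogens and perlecan tie the laminin and collagen networks to each other. In the heart such a sheet surrounds every cardiomyocyte and pericyte and underlies the endothelium of blood vessels. The laminin alpha 2 chain is the main alpha chain around muscle fibres, and its loss causes a congenital muscular dystrophy, while the alpha 4 and alpha 5 chains are the alpha chains of vessel walls.

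After removal of probable doublets the Sham library held 9465 cells with 25905404 UMIs and the TAC library 9459 cells with 26660423 UMIs, of which 81410 and 74443 came from the 10 genes. Clusters were named by marker genes, so each name stands for cells that are like that type. In Sham and TAC there were 2510 and 2397 cardiomyocytes, 2288 and 2130 fibroblasts, 1903 and 2252 endothelial cells, 1055 and 1044 pericytes, and 1411 and 1347 macrophages. The remaining named types held between 15 and 112 cells per library. Among these 5 large types the median depth ran from 1105 UMIs per cell in Sham endothelial cells to 4916 in TAC cardiomyocytes. Mitochondrial genes gave 0.261% of the UMIs of Sham cardiomyocytes and 0.146% in TAC, and ribosomal protein genes 0.185% and 0.187%. How much of the counted RNA was nuclear was not tested. The libraries are called by their labels here, and of 10 genes that pressure overload is known to raise 7 were lower in TAC, Ankrd1 was at 1.00059 times, and Myh7 and Meox1 were higher. In cardiomyocytes the TAC level was 0.753 times the Sham level for Nppa, 0.773 times for Nppb and 0.354 times for Acta1, against 1.35 times for Myh7, and in fibroblasts it was 0.724 times for Postn and for Cilp, 0.484 times for Comp, 0.584 times for Thbs4 and 1.19 times for Meox1, whose interval holds 1. RNA of cardiomyocytes was also found in droplets of other types. The 7 cardiomyocyte markers summed to 3.13% of their cardiomyocyte level in Sham fibroblasts, 4.02% in pericytes, 4.54% in macrophages and 5.86% in endothelial cells, and to 2.90%, 3.72%, 3.56% and 5.13% in the TAC library. The 8 fibroblast markers summed to 1.71% of their fibroblast level in Sham cardiomyocytes and 5.30% in Sham macrophages, and to 1.76% and 4.89% in TAC. In endothelial cells they summed to 7.96% in each library. A gene at such a share of its level in the source type cannot be told apart from this background.

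In the GENCODE M21 annotation (GRCm38 build) Col4a1 lies at chr8:11198423-11312826 on the minus strand and Col4a2 at chr8:11312805-11449287 on the plus strand. The genes are transcribed away from each other, and their annotated ends overlap by 22 bases at the starts of both. RefSeq start sites on GRCm38.p6 are the same, and the stretch is printed because both collagen chains start in it and the data below compare their output. Capitals mark the 22 bases that belong to both genes, read on the plus strand at chr8:11312801-11312830:

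Col4a1 and Col4a2 starts: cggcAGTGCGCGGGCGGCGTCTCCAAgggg

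The stretch holds the letters GGGCGG, the core of a GC box. Over the 300 bases from 250 before to 50 after each start, the Col4a1 window had 1 match to GGGCGG on either strand and the Col4a2 window 3, and each had 1 match to CCAAT and none to TATAAA. Of 32851 promoter windows, 35.7% held GGGCGG, 37.4% CCAAT and 13.6% TATAAA on either strand, and windows that overlap, as these do, share their matches. The G and C bases made up 74.0% of the Col4a1 window and 73.7% of the Col4a2 window, against a median of 52.7% over all windows.

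Among the 5 large types both type IV collagen genes were highest in pericytes, the contractile cells that share the basement membrane of capillaries. The capillary cells within the endothelium, given below, stood above the pericytes for both genes in Sham and for Col4a2 in TAC. Levels are given as UMIs of the gene per 1000000 UMIs of the cell type. Col4a1 stood at 818 in Sham pericytes (interval 777 to 860) and 793 in TAC pericytes (754 to 834). Endothelial cells came next, with 684 (651 to 718) in Sham and 549 (524 to 575) in TAC, and fibroblasts followed with 544 and 490. Cardiomyocytes were far lower at 86.2 and 66.1, and macrophages lowest at 37.6 and 23.7. All neighbours in this order differed by more than their counting error in both libraries, the smallest step being 1.12-fold (1.05 to 1.19) between TAC endothelial cells and fibroblasts. In TAC macrophages the level was 4.84% of that in fibroblasts, close to the 4.89% of the fibroblast markers.

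Col4a2 had the same order with other distances. It stood at 817 (776 to 860) in Sham pericytes and 714 (677 to 753) in TAC pericytes, at 745 and 578 in endothelial cells, at 366 and 335 in fibroblasts, at 210 and 162 in cardiomyocytes and at 36.2 and 27.5 in macrophages. The step from fibroblasts to cardiomyocytes was 1.74-fold (1.65 to 1.85) for Col4a2 in Sham and 6.31-fold (5.89 to 6.76) for Col4a1.

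**Figure D1:**
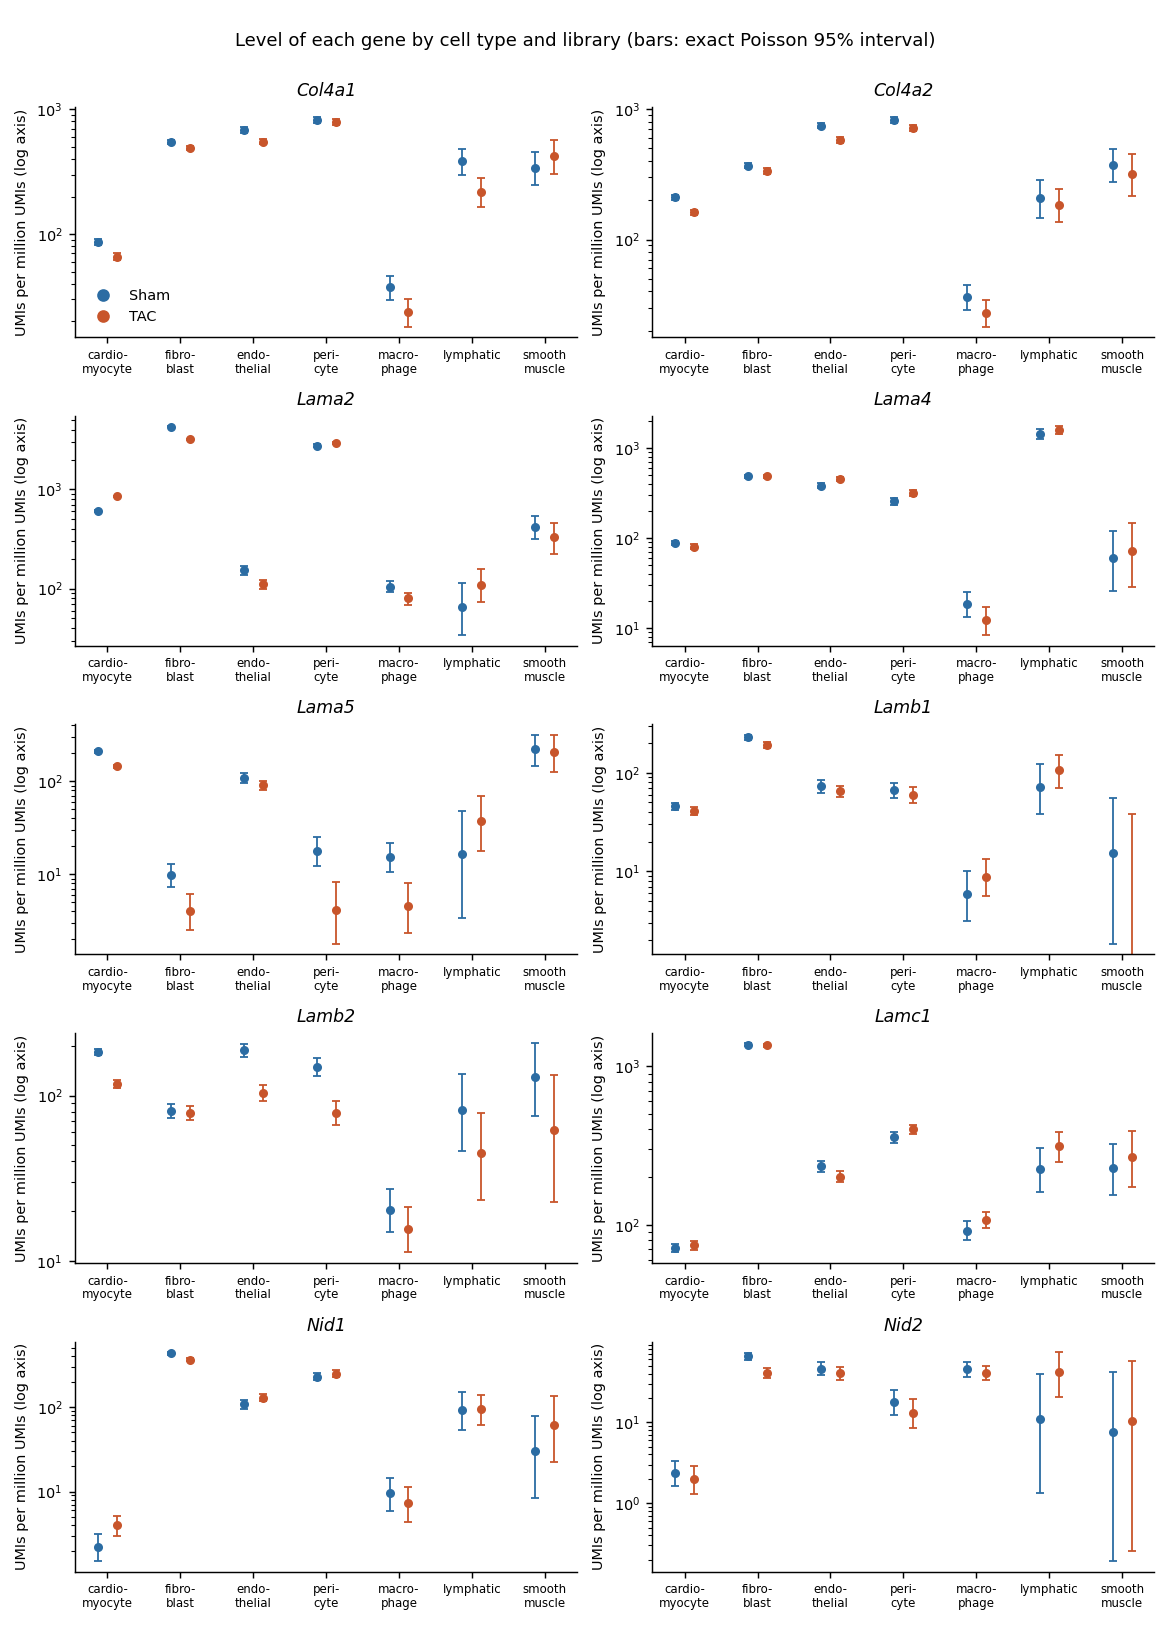
Level of each of the 10 genes in 7 cell types of the Sham (blue) and TAC (orange) libraries, as UMIs per 1000000 UMIs on a log axis, with exact Poisson 95% intervals as bars. Col4a1 and Col4a2 are highest in pericytes among the 5 large types, Lama2, Lamb1, Lamc1 and Nid1 in fibroblasts and Lama5 in cardiomyocytes, while Lama4 reaches 1449 and 1608 in lymphatic endothelial cells. Lamb1 had 0 UMIs in TAC smooth muscle cells, where only the upper part of its interval is drawn.

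The proportion of the 2 collagen chains depended on the cell type and hardly on the library. Col4a2 gave 70.9% of the UMIs of the pair in Sham cardiomyocytes (69.4 to 72.3) and 71.0% in TAC cardiomyocytes (69.4 to 72.7). The share was 40.2% (38.8 to 41.6) and 40.6% (39.1 to 42.1) in fibroblasts, 52.1% and 51.3% in endothelial cells, and 49.98% and 47.4% in pericytes. A share of a pair is not a ratio of molecules, since genes differ in how well they are captured. Whether that difference is the same in all types was not tested. Between types the intervals of cardiomyocytes and fibroblasts stood apart from each other and from those of endothelial cells and pericytes, in both libraries.

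Detection in single cells was compared after each cell had been thinned to 1000 UMIs. Cells with fewer were left out, which removed 813 Sham and 725 TAC endothelial cells but only 35 and 13 cardiomyocytes. A Col4a1 UMI was then seen in 43.4% of Sham endothelial cells and 37.5% of TAC endothelial cells, and in 51.1% and 48.1% of pericytes, against 3.36% and 1.96% of macrophages. In endothelial cells, fibroblasts and pericytes, the cells with a Col4a1 UMI more often had a Col4a2 UMI. Among Sham endothelial cells it was seen in 52.6% (48.0 to 57.2) of the 473 with Col4a1 and in 33.4% (29.7 to 37.3) of the 617 without, and among TAC endothelial cells in 46.7% and 30.8%. In fibroblasts the shares were 33.9% and 24.0% in Sham and 32.3% and 22.4% in TAC, and in pericytes 56.5% and 44.8% in Sham and 50.4% and 41.3% in TAC. Cardiomyocytes had 26.8% (21.1 to 33.2) and 19.4% (17.8 to 21.1) in Sham. In TAC they had 15.6% (10.2 to 22.5) and 14.3% (12.8 to 15.8), where the first interval held the second share. Cells of a library are not replicates, and endothelial cells and fibroblasts each mix clusters that differ in both genes, as given below for the endothelium. For Lamc1 in cells with and without Lama4, the shares in fibroblasts were 64.6% and 64.4% in Sham and 67.4% and 66.5% in TAC.

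Lama2 (chr10:26980036-27619758, minus strand), the gene of the muscle laminin chain, had its highest level in fibroblasts. The level there was 4291 (4236 to 4346) in Sham and 3196 (3148 to 3245) in TAC. Pericytes followed with 2770 (2694 to 2847) and 2939 (2863 to 3017), and cardiomyocytes with 604 (591 to 617) and 851 (836 to 867). Endothelial cells had 153 and 110, which was 3.56% and 3.45% of the fibroblast level, and macrophages 105 and 79.5, which was 2.44% and 2.49%. In both types this was below the share of the fibroblast markers. Fibroblasts contributed 62.6% of all Lama2 UMIs in Sham and 48.6% in TAC, and cardiomyocytes 21.9% and 32.7%. At 1000 UMIs a Lama2 UMI was seen in 94.2% of Sham and 89.4% of TAC fibroblasts, in 86.5% and 87.7% of pericytes, and in 40.0% (38.1 to 42.0) and 53.9% (51.9 to 55.9) of cardiomyocytes, against 10.1% and 7.82% of macrophages. The annotated gene spans 639.7 kb, and Gm36962, a gene model on the same strand, lies inside it.

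Lama4 (chr10:38965515-39110188, plus strand), an alpha chain of endothelial and other vessel basement membranes, was spread over 3 large types. Its level was 488 (470 to 507) and 491 (472 to 511) in Sham and TAC fibroblasts, 385 (360 to 410) and 453 (430 to 477) in endothelial cells, and 258 (236 to 283) and 321 (296 to 347) in pericytes. Cardiomyocytes had 89.2 and 80.9, and macrophages 18.6 and 12.2. Outside the large types, the 85 Sham and 112 TAC lymphatic endothelial cells stood at 1449 (1280 to 1635) and 1608 (1459 to 1768). This was 3.77-fold (3.27 to 4.32) above the other endothelial cells in Sham and 3.55-fold (3.18 to 3.95) in TAC.

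Lama5 (chr2:180176373-180225859, minus strand), the alpha chain of laminins in many epithelia and mature vessels, was highest in cardiomyocytes among the large types. The cardiomyocyte level was 210 (202 to 218) in Sham and 144 (138 to 151) in TAC, and the endothelial level was 108 (95.3 to 122) and 90.5 (80.4 to 101.5). Fibroblasts had 9.77 and 4.04, pericytes 18.1 and 4.16, and macrophages 15.4 and 4.59. These were 4.66%, 8.61% and 7.34% of the cardiomyocyte level in Sham and 2.80%, 2.88% and 3.18% in TAC, beside 3.13%, 4.02% and 4.54% and then 2.90%, 3.72% and 3.56% for the cardiomyocyte markers. Endothelial cells, at 51.5% and 62.8% of the cardiomyocyte level, were far above the 5.86% and 5.13% of those markers. In the 56 Sham and 43 TAC smooth muscle cells the Lama5 level was 220 (148 to 316) and 205 (125.2 to 317), from 29 and 20 UMIs, and the intervals held the cardiomyocyte level of the same library.

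The proportion of Lama2 to Lama4 set the endothelial cells apart from the other large types. Lama2 gave 87.1% and 91.3% of the UMIs of Lama2 and Lama4 together in Sham and TAC cardiomyocytes, 89.8% and 86.7% in fibroblasts and 91.5% and 90.2% in pericytes. In endothelial cells it gave 28.4% (25.96 to 30.9) in Sham and 19.6% (17.8 to 21.5) in TAC, and in lymphatic endothelial cells 4.33% and 6.36%. Endothelial Lama2 was at 3.56% and 3.45% of its fibroblast level, below the 7.96% of the fibroblast markers in each library. The Lama2 part of the endothelial shares thus cannot be told apart from background RNA. Lama5 gave 25.8% of the UMIs of Lama5 and Lama2 in Sham cardiomyocytes (24.95 to 26.6) and 14.5% in TAC cardiomyocytes (13.9 to 15.1).

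**Figure D2:**
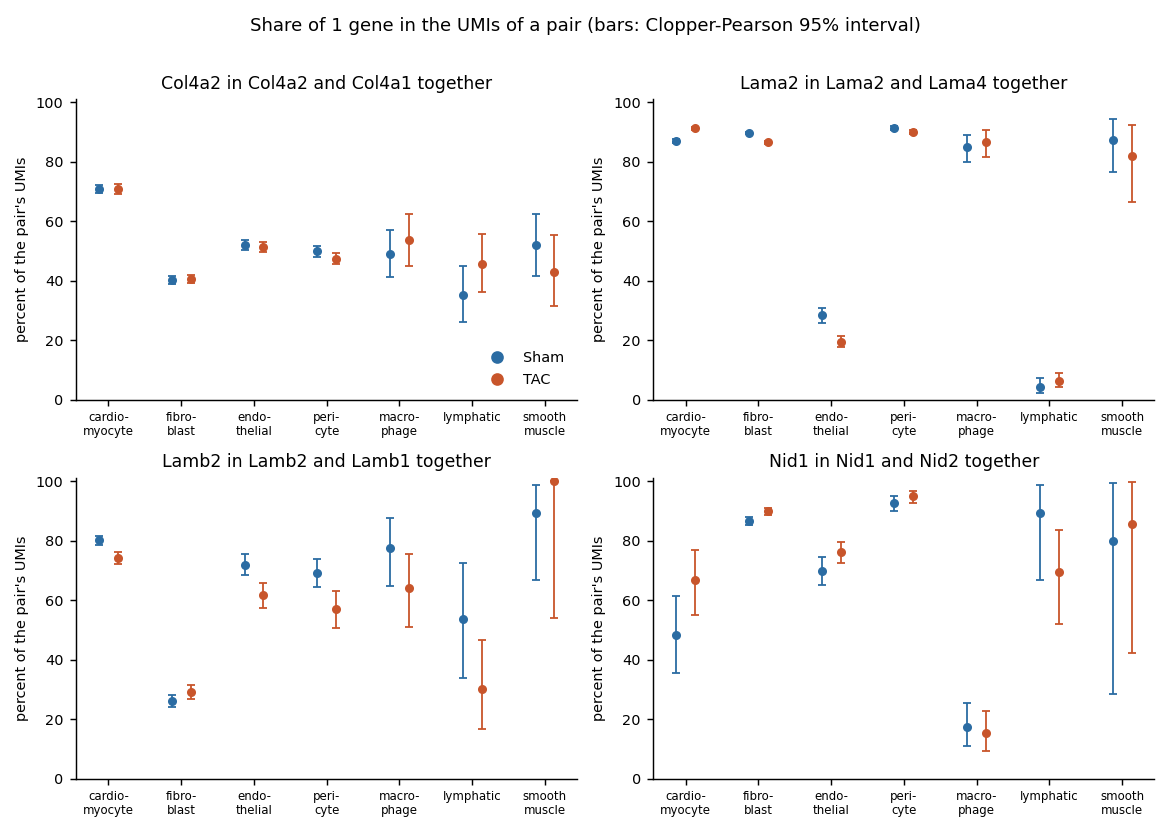
Percent of the UMIs of a gene pair that came from the gene named first, in 7 cell types of the Sham (blue) and TAC (orange) libraries, with Clopper-Pearson 95% intervals. The Col4a2 share is near 71% in cardiomyocytes and near 40% in fibroblasts of both libraries, the Lama2 share is lowest in endothelial and lymphatic endothelial cells, and the Nid1 share is lowest in macrophages.

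The beta chains divided the types in another way. Lamb1 (chr12:31265234-31329644, plus strand) was highest in fibroblasts, at 230 (217 to 243) in Sham and 191 (180 to 204) in TAC. It stood at 73.0 and 64.6 in endothelial cells, 66.2 and 59.2 in pericytes and 45.5 and 40.8 in cardiomyocytes, and the endothelial and pericyte levels did not differ beyond counting error (1.10-fold, 0.870 to 1.40, in Sham). Lamb2 (chr9:108479736-108490530, plus strand), the beta chain of synaptic and vascular laminins, was lowest in macrophages, with 20.4 and 15.7, and next lowest in fibroblasts in Sham, with 81.0 in Sham and 78.4 in TAC. It reached 188 (171 to 206) in Sham endothelial cells, 183 (176 to 191) in Sham cardiomyocytes and 149 (132 to 168) in Sham pericytes. In TAC these levels were 103 (92.7 to 115), 118 (112 to 124) and 78.5 (66.4 to 92.0). Endothelial cells and cardiomyocytes did not differ beyond counting error in Sham (1.02-fold, 0.925 to 1.13), and in TAC pericytes and fibroblasts did not (1.001-fold, 0.825 to 1.21). The share of Lamb2 in the pair was 26.1% and 29.1% in fibroblasts of the 2 libraries, against 80.1% and 74.2% in cardiomyocytes, 72.0% and 61.6% in endothelial cells and 69.2% and 57.0% in pericytes.

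Lamc1 (chr1:153218922-153332786, minus strand), the gamma chain of nearly all laminins outside epithelia, was highest in fibroblasts, at 1364 (1333 to 1395) in Sham and 1360 (1328 to 1392) in TAC. Pericytes had 357 and 400, endothelial cells 234 and 201, macrophages 91.9 and 107.8, and cardiomyocytes 71.3 and 74.2. The cardiomyocytes were thus 19.1-fold (17.9 to 20.5) below the fibroblasts in Sham and 18.3-fold (17.1 to 19.6) in TAC. Fibroblasts gave 74.9% of all Lamc1 UMIs in Sham and 71.5% in TAC.

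Nid1 and Nid2, the genes of the linker proteins, were both highest in fibroblasts but differed elsewhere. Nid1 (chr13:13437551-13512269, plus strand) stood at 430 (413 to 448) and 362 (346 to 379) in Sham and TAC fibroblasts, at 228 and 248 in pericytes and at 107 and 129 in endothelial cells. In cardiomyocytes it had 30 and 52 UMIs, or levels of 2.23 and 3.97, which is 0.518% and 1.10% of the fibroblast level and below the share of the fibroblast markers there. Nid2 (chr14:19751265-19811787, plus strand) was a gene of low counts, with 647 UMIs in all Sham cells and 513 in all TAC cells. Its level was 65.5 (58.8 to 72.6) and 40.6 (35.3 to 46.5) in fibroblasts, 46.2 (38.02 to 55.6) and 40.5 (33.8 to 48.0) in endothelial cells, and 18.1 and 13.0 in pericytes. Macrophages had 45.3 in Sham and 40.5 in TAC, which was 69.2% and 99.7% of the fibroblast level, and their order among fibroblasts and endothelial cells was within counting error in TAC. The other 5 genes that were highest in fibroblasts reached at most 7.93% of their fibroblast level in macrophages. Nid1 gave 86.8% and 89.9% of the UMIs of the nidogen pair in fibroblasts but 17.4% (11.1 to 25.3) and 15.2% (9.41 to 22.7) in macrophages.

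By the highest level among the 5 large types, fibroblasts led for 6 of the 10 genes in Sham and in TAC (Lama2, Lama4, Lamb1, Lamc1, Nid1 and Nid2), where 21.1% and 21.7% of all genes with at least 50 UMIs were highest in fibroblasts. Pericytes led for Col4a1 and Col4a2 in both libraries, beside 13.8% and 13.0% of all genes. Cardiomyocytes led for Lama5 in Sham and for Lama5 and Lamb2 in TAC, beside 20.3% and 20.2%. Endothelial cells led for Lamb2 in Sham, beside 17.3%, and for none in TAC, beside 17.9%. Macrophages led for none, although 27.4% and 27.3% of all genes were highest there. The first place of Lamb2 in Sham and of Nid2 in TAC was within counting error.

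Within the endothelium the collagen chains were unequal between clusters that had been formed without these genes or the other basement membrane genes examined. In capillary cells, of which there were 1261 in Sham and 1504 in TAC, Col4a1 stood at 902 (855 to 952) and 773 (733 to 814) and Col4a2 at 1027 (976 to 1080) and 821 (780 to 863). The Sham levels were above those of Sham pericytes, 818 for Col4a1 and 817 for Col4a2. In TAC the capillary level was above the pericyte level of 714 for Col4a2, and the capillary interval of Col4a1 held the pericyte level of 793. In endocardial cells, which line the chambers, Col4a1 stood at 156 (117 to 205) and 176 (146 to 211) and Col4a2 at 121 (86.9 to 164) and 110 (86.1 to 138), from 193 and 303 cells. The endocardial cells had instead the highest endothelial levels of Col4a3 and Col4a4, whose chains are part of the type IV collagen of the glomerulus and were looked at after their values were seen. Col4a3 was at 487 (416 to 567) and 403 (356 to 455) there and at 7.47 and 5.34 in capillary cells, and Col4a4 at 650 (567 to 741) and 564 (509 to 624) there and at 9.51 and 8.00 in capillary cells. These genes were not particular to the endocardium. Among the 5 large types both were highest in fibroblasts, at 214 in Sham and 189 in TAC for Col4a3 and at 355 and 270 for Col4a4. Lamb1 showed the same direction as Col4a1, with 102 and 96.6 in capillary and 23.6 and 21.1 in endocardial cells. Lama4 varied less, with 416 and 465 in capillary and 345 and 447 in endocardial cells. In the 66 Sham and 162 TAC arterial cells Lama5 stood at 198 (117 to 313) and 122 (80.4 to 177), against 110 and 85.4 in capillary cells, and Lama3, also looked at after its values were seen, stood at 484 (352 to 650) and 407 (327 to 500), against 36.7 and 39.0.

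**Figure D3:**
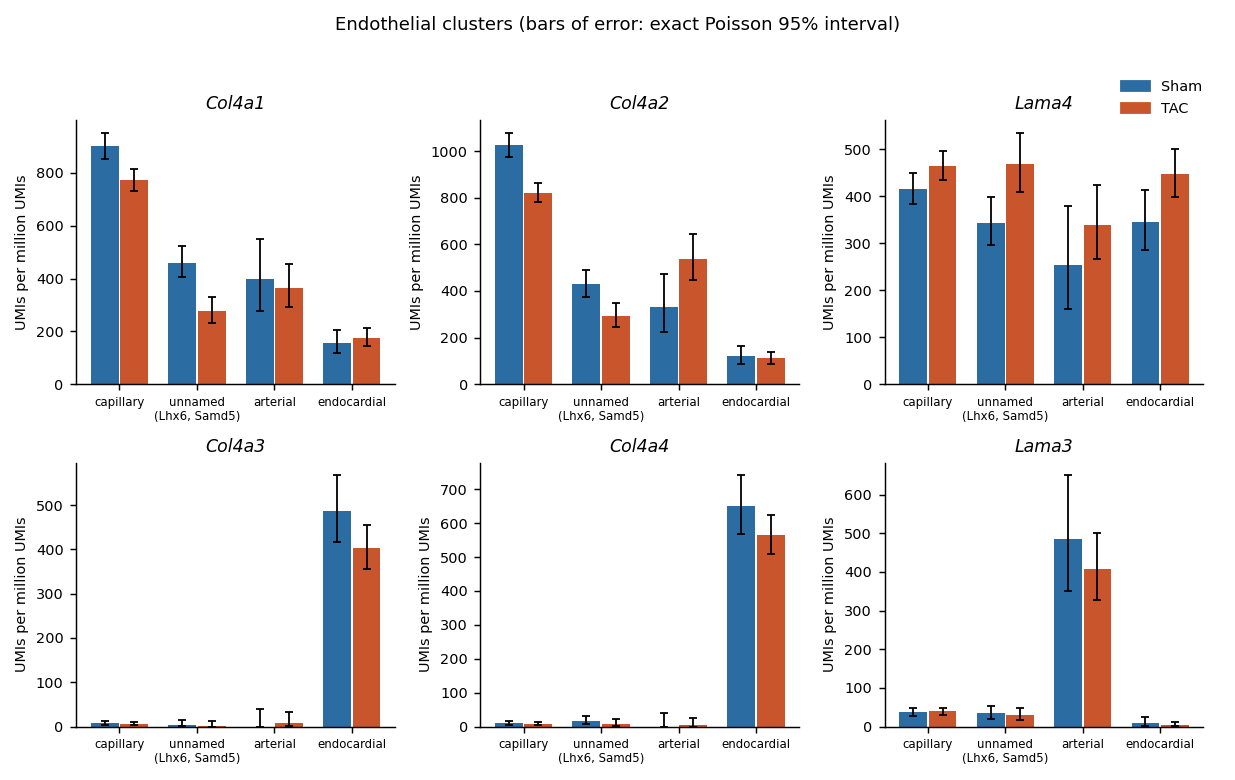
Levels in 4 endothelial clusters of the Sham (blue) and TAC (orange) libraries as UMIs per 1000000 UMIs from 0, with exact Poisson 95% intervals. Col4a1 and Col4a2 are highest in capillary and lowest in endocardial cells, Col4a3 and Col4a4 are high in endocardial cells only among these 4 clusters, Lama3 is high in arterial cells, and Lama4 varies less than the collagens. The unnamed cluster is led by Lhx6, Samd5 and Rasa4.

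Fibroblast clusters, formed in each library by itself, differed in smaller steps. In Sham, cells marked by Pi16 and Cd55 (425 cells) had a Lamc1 level of 1765 (1691 to 1841) and a Nid1 level of 527 (487 to 569), and cells marked by Postn and Cilp (289 cells) had 1087 (1013 to 1166) and 304 (265 to 347). The TAC cells marked by Pi16 and Cd55 (645 cells) had 1731 (1671 to 1793) for Lamc1 and 405 (376 to 435) for Nid1, and the 28 cells marked by Postn and Cilp had 940 (766 to 1142) and 177 (106 to 276). Lamb1 was likewise lower in the Postn and Cilp cells, at 121 (96.6 to 149) against 221 (196 to 249) in Sham and 65.1 (26.2 to 134) against 181 (162 to 202) in TAC. Col4a2 went the other way, with 423 (377 to 473) in the Postn and Cilp cells of Sham and 512 (386 to 666) in those of TAC, against 265 (237 to 295) and 303 (278 to 329) in the Pi16 and Cd55 cells.

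Of the small types, smooth muscle cells had 342 and 420 for Col4a1 and 418 and 328 for Lama2, from 45, 41, 55 and 32 UMIs. The Lama2 level of fibroblasts was 10.3-fold higher in Sham and 9.75-fold higher in TAC. The fibroblast markers stood at 5.94% and 10.2% of their fibroblast level in smooth muscle cells. The TAC level of Lama2 there thus cannot be told apart from that background. Schwann cells, which wrap nerve fibres in a laminin sheet, had 1044 (714 to 1473) and 1245 (862 to 1740) for Lama2 from 17 and 15 cells. Fibroblasts had 4291 and 3196, and the fibroblast markers stood at 57.0% and 23.4% of their fibroblast level in Schwann cells. The Sham level of Lama2 in Schwann cells thus cannot be told apart from that background, and the part of fibroblast RNA in the TAC level was not tested. The 19 and 26 epicardial or mesothelial cells had 153 (56.2 to 333) and 242 (136 to 400) for Lama5. Lamb1 and Nid2 had 0 UMIs in the T cells of both libraries, which allows a level of up to 60.3 in Sham and 38.5 in TAC (3 counts). With 36 to 57 T or B cells per library, Col4a1, Col4a2, Lama2, Lama4, Lama5, Lamb2, Lamc1 and Nid1 had at most 27 UMIs in any of these groups, and the cardiomyocyte markers stood at 33.6% of their cardiomyocyte level in Sham T cells and 21.9% in TAC B cells.

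The second comparison set the TAC library against the Sham library within a type. A gene was counted as different where its level was at least 1.5-fold higher or lower, among genes with at least 50 UMIs over both libraries. In cardiomyocytes 1 of 10 members was higher in TAC (Nid1) and 1 lower (Lamb2), where 12.9% and 6.76% of 13302 genes were. In fibroblasts 0 of 10 were higher and 2 lower (Lama5 and Nid2), beside 10.5% and 4.32% of all genes. In endothelial cells 0 of 10 were higher and 1 lower (Lamb2), beside 8.68% and 5.88%, and in pericytes 0 of 9 were higher and 1 lower (Lamb2), beside 7.43% and 6.43%. In macrophages 0 of 7 were higher and 2 lower (Col4a1 and Lama4), beside 9.23% and 8.72%. The macrophage level of Lama4 was 3.80% of its fibroblast level in Sham and 2.49% in TAC and that of Col4a1 6.91% and 4.84%, beside 5.30% and 4.89% for the fibroblast markers, so the macrophage values of Lama4, and of Col4a1 in TAC, cannot be told apart from that background. Lama5 in pericytes and Lama5, Lamb1 and Nid1 in macrophages had too few UMIs to be counted. With 7 to 10 members per type, counts of 0, 1 or 2 are too small to be set apart from these shares.

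The medians were below those of all genes. The median log2 ratio of TAC to Sham over the members was -0.21 in cardiomyocytes, -0.20 in fibroblasts, -0.24 in endothelial cells, -0.04 in pericytes and -0.40 in macrophages, beside 0.03, 0.02, 0.03, -0.01 and 0.00 over all genes tested. The level was lower in TAC for 7 of 10 members in cardiomyocytes, 9 of 10 in fibroblasts, 8 of 10 in endothelial cells, 5 of 9 in pericytes and 6 of 7 in macrophages (with the genes at background level named above among them), where 46.9%, 47.1%, 46.1%, 50.7% and 49.8% of all genes were lower. Lama2 in endothelial cells, below the share of the fibroblast markers there, was also among those counted.

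Lamb2 was the member with the lowest ratio in cardiomyocytes and endothelial cells. The TAC level was 0.642 times the Sham level in cardiomyocytes (0.602 to 0.684), 0.552 times in endothelial cells (0.478 to 0.637) and 0.527 times in pericytes (0.429 to 0.645). In fibroblasts it was 0.968 times (0.844 to 1.11), and the interval of that type did not overlap with those of the other 3. In macrophages it was 0.769 times (0.491 to 1.201). The share of endothelial cells with a Lamb2 UMI at 1000 UMIs was 18.1% (15.8 to 20.5) in Sham and 9.496% (8.07 to 11.1) in TAC. Lamb2 spans 10.8 kb, and among genes under 20 kb 8.48% of those tested were at least 1.5-fold lower in TAC cardiomyocytes, 9.09% in endothelial cells and 10.3% in pericytes.

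Lama2 moved in opposite directions in different types. The ratio was 1.41 (1.37 to 1.45) in cardiomyocytes and 1.06 (1.02 to 1.10) in pericytes. It was 0.745 (0.730 to 0.760) in fibroblasts, 0.723 (0.623 to 0.838) in endothelial cells and 0.760 (0.627 to 0.921) in macrophages. In endothelial cells its share of the fibroblast level was 3.56% and 3.45%, below the 7.96% of the fibroblast markers in each library. In macrophages its share (2.44% and 2.49%) was also below that of the fibroblast markers, and no direction was read in either type. The fibroblast markers in cardiomyocytes were at 1.71% and 1.76% of their fibroblast level in Sham and TAC, whereas Lama2 in cardiomyocytes was at 14.1% and 26.6%. In Sham endothelial cells 56 of the 370 Lama2 UMIs came from 1 cell. The endothelial ratio was 0.837 without the cell of most Lama2 UMIs in each library and 0.432 when doublets were not removed, and the cardiomyocyte ratio was 1.03 with types assigned cell by cell from markers instead of by cluster.

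Lama5 was lower in TAC in cardiomyocytes, at 0.688 times (0.649 to 0.729), and in endothelial cells, at 0.838 times (0.707 to 0.994). In fibroblasts, where its share of the cardiomyocyte level was near that of the cardiomyocyte markers, the ratio was 0.414 (0.237 to 0.698) from 53 and 21 UMIs. Lama4 was higher in TAC in endothelial cells, at 1.18 times (1.08 to 1.28), and in pericytes, at 1.24 times (1.10 to 1.40), and close to equal in fibroblasts, at 1.01 times (0.952 to 1.06). In macrophages it was 0.659 times (0.402 to 1.07), from 41 and 32 UMIs, so the count of that type includes a gene whose interval holds 1.

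The collagen genes were lower in TAC in cardiomyocytes, at 0.766 times (0.701 to 0.837) for Col4a1 and 0.772 times (0.730 to 0.817) for Col4a2, and in endothelial cells, at 0.803 (0.751 to 0.859) and 0.775 (0.726 to 0.827). In fibroblasts they were at 0.9004 (0.854 to 0.950) and 0.915 (0.857 to 0.976). In pericytes Col4a1 was at 0.970 (0.903 to 1.04), which holds 1, and Col4a2 at 0.874 (0.812 to 0.942). Lamc1 was at 0.997 (0.965 to 1.03) in fibroblasts, 0.860 (0.767 to 0.964) in endothelial cells and 1.12 (1.01 to 1.24) in pericytes. Lamb1 was at 0.832 (0.765 to 0.906) in fibroblasts, and its intervals in cardiomyocytes, endothelial cells and pericytes held 1. Nid1 was at 0.842 (0.792 to 0.895) in fibroblasts and 1.21 (1.03 to 1.42) in endothelial cells, and Nid2 at 0.621 (0.521 to 0.738) in fibroblasts. Nid1 in cardiomyocytes, at 1.78 times (1.11 to 2.89), rested on 30 and 52 UMIs. The share of cardiomyocytes with a Nid1 UMI was 1.16% in Sham and 2.0025% in TAC before thinning (29 and 48 cells) and 0.404% and 0.252% at 1000 UMIs (10 and 6 cells), and no direction was read.

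**Figure D4:**
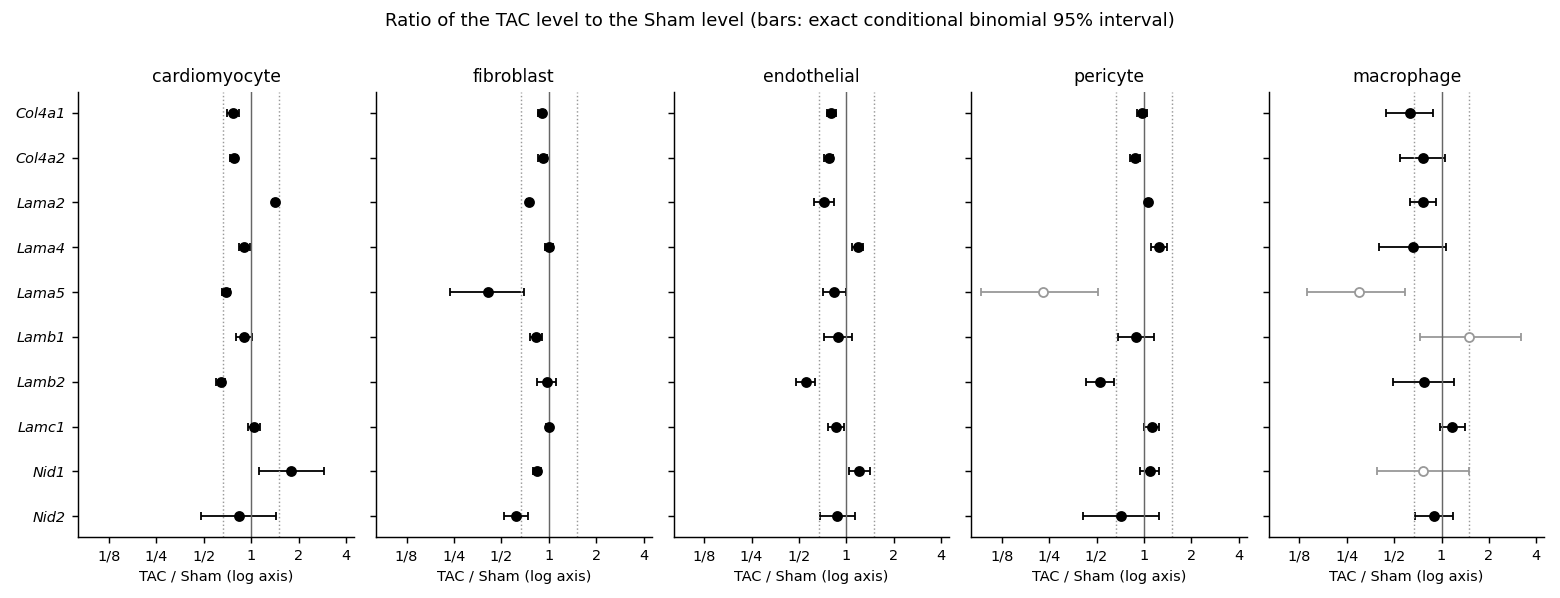
Ratio of the TAC level to the Sham level of each of the 10 genes in the 5 large cell types, on a log axis, with exact conditional binomial 95% intervals. Dotted lines mark 1.5-fold in each direction and open grey points have under 50 UMIs. Lamb2 sits between 0.527 and 0.642 in cardiomyocytes, endothelial cells and pericytes and at 0.968 in fibroblasts, and Lama2 is at 1.41 in cardiomyocytes and 0.745 in fibroblasts.

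The clusters within a type were not equally filled in the 2 libraries, so the ratios were also taken within clusters formed on both libraries together, a step that was added after the data had been seen. For Lama2 the ratio was 1.37 (1.31 to 1.43) and 1.30 (1.2498 to 1.35) in the 2 joint cardiomyocyte clusters and 0.728 to 0.847 in the 4 joint fibroblast clusters, in each with an interval that did not hold 1. For Lamb2 it was 0.565 and 0.767 in the cardiomyocyte clusters, 0.523 (0.433 to 0.629) in the largest joint endothelial cluster, led by Ccdc85a and Rgcc, and 0.527 in the pericyte cluster, and in the fibroblast clusters it ran from 0.882 to 1.33 with intervals that all held 1. Lama5 was at 0.605 (0.551 to 0.663) and 0.759 (0.699 to 0.824) in the cardiomyocyte clusters. In that endothelial cluster Nid1 was at 1.40 (1.14 to 1.73), Lama4 at 1.17 (1.05 to 1.30), Col4a1 at 0.926 (0.859 to 0.998) and Col4a2 at 0.879 (0.818 to 0.944). In the next joint endothelial cluster, led by Lhx6, with 349 Sham and 508 TAC cells, Col4a1 was at 0.700 (0.577 to 0.849), Col4a2 at 0.872 (0.721 to 1.06) and Nid1 at 0.901 (0.659 to 1.24). In the largest joint fibroblast cluster, led by Rgs17, Nid2 was at 0.613 (0.483 to 0.773), Nid1 at 0.837 (0.771 to 0.908) and Lamc1 at 0.964 (0.923 to 1.01).

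**Figure D5:**
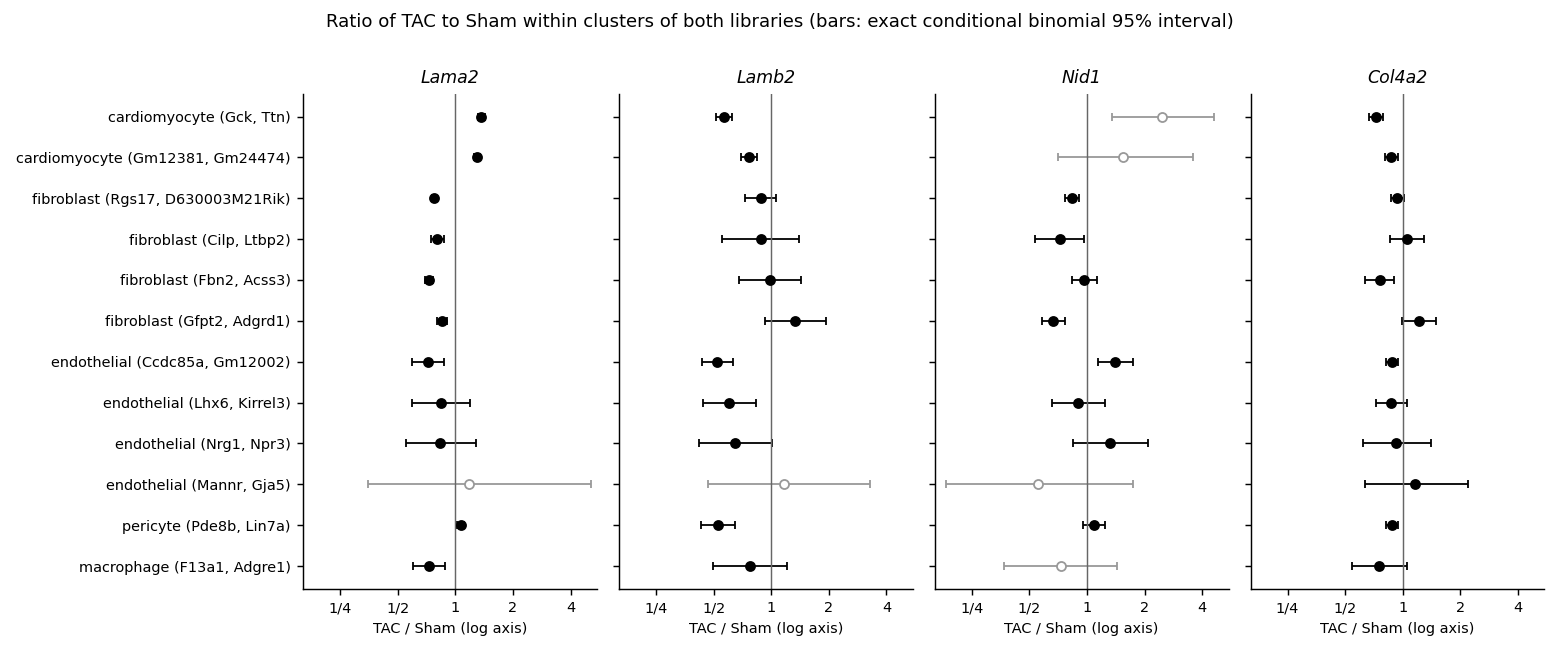
Ratio of TAC to Sham of Lama2, Lamb2, Nid1 and Col4a2 within 12 clusters formed on both libraries together, each given with its type and 2 leading genes, on a log axis with exact conditional binomial 95% intervals. Open grey points have under 50 UMIs. Lama2 is above 1 in both cardiomyocyte clusters and below 1 in all 4 fibroblast clusters, and Lamb2 is below 1 in the cardiomyocyte and pericyte clusters.

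Another 49 genes of the basement membrane, in 6 lists, were counted in the same way. In cardiomyocytes 0 of the 39 with enough UMIs were at least 1.5-fold higher in TAC and 4 lower, in fibroblasts 3 and 2 of 40, in endothelial cells 2 and 2 of 36, in pericytes 1 and 1 of 32, and in macrophages 2 and 5 of 19. Over all genes the shares higher and lower were 12.9% and 6.76% in cardiomyocytes, 10.5% and 4.32% in fibroblasts, 8.68% and 5.88% in endothelial cells, 7.43% and 6.43% in pericytes and 9.23% and 8.72% in macrophages. Of the other type IV collagens only Col4a5 in macrophages passed, at 0.475 times (0.251 to 0.872). Its levels there were 14.5 in Sham and 6.88 in TAC, beside 309 and 274 in cardiomyocytes. The cardiomyocyte markers stood at 4.54% and 3.56% of their own level in macrophages, so this ratio cannot be told apart from that background. Among proteoglycans and multiplexin collagens, Agrn, the gene of agrin, a ligand of dystroglycan, was lower in TAC in cardiomyocytes, from 179 to 94.5 or 0.529 times (0.494 to 0.567), in fibroblasts, at 0.598 times (0.454 to 0.783), and in macrophages, at 0.493 times (0.328 to 0.730). Agrn in macrophages had levels of 32.6 and 16.1, and the part of cardiomyocyte RNA in it was not tested. Col15a1 was at 0.635 times (0.503 to 0.801) in endothelial cells.

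Among the other basement membrane proteins Sparc, which binds type IV collagen, was higher in TAC fibroblasts, from 119 to 209 or 1.75 times (1.59 to 1.93), and Fn1, fibronectin, in endothelial cells, at 1.51 times (1.16 to 1.96). Among chaperones and modifying enzymes, Serpinh1, the collagen chaperone HSP47, was at 1.74 times (1.44 to 2.11) and Colgalt1, a collagen galactosyltransferase, at 0.666 times (0.543 to 0.815) in fibroblasts. P4ha1, a prolyl 4-hydroxylase subunit, was at 1.51 times (1.28 to 1.78) in pericytes and 1.55 times (1.29 to 1.87) in macrophages, and P4ha2 at 0.536 times (0.302 to 0.926) in pericytes. P3h2, a prolyl 3-hydroxylase of type IV collagen, was at 0.650 times (0.590 to 0.717) in macrophages, where Mia3, which helps to export large collagens, was at 0.647 times (0.535 to 0.782). In cardiomyocytes P3h2 was at 0.547 times (0.365 to 0.809). Its levels there were 5.72 and 3.13, beside 155 and 201 in pericytes and 430 and 280 in macrophages. In cardiomyocytes the pericyte markers stood at 2.78% and 3.53% of their own level and the macrophage markers at 0.342% and 0.471%. The part of such background in cardiomyocyte P3h2 was not tested, and no direction was read. Of the receptors, Itga3, a laminin-binding integrin chain, was at 1.95 times (1.40 to 2.76) in endothelial cells and Itga2, a collagen-binding chain, at 1.67 times (1.12 to 2.51) in fibroblasts.

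For each member the genes with the most similar pattern were sought over 6 types in 2 libraries, 12 points that share libraries and depth, by Pearson's r of log2(level + 1) among 13444 other genes. They are a description without a test. Col4a1 was most like Jazf1 (r = 0.978), Arhgef12 (0.965) and Mapk12 (0.963), and Col4a2 was most like Mapk12 (0.975), 9530026P05Rik (0.959) and Nck2 (0.959). Lama2 was most like Gm36962 (0.993), which lies inside it on the same strand, followed by Gm37644 (0.989) and Ror1 (0.976). Lama4 came with Tcf7l1, Pir and Fxyd6 (0.961 to 0.968), and Lama5 with Casz1 and Unc45b (0.935 and 0.918). Lamb1 came with Nfia, Bmp1 and Tmem263 (0.957 to 0.971), Lamb2 with Eml1, Pcdhga7 and Msantd3 (0.914 to 0.920), and Lamc1 with Tmem45a, Sgms2 and Mxra8 (0.974 to 0.983). Nid1 came with Col5a2, Map4k4 and Fstl1 (0.982 to 0.989) and Nid2 with Chst7, Kif18a and Rarg (0.969 to 0.985). Among the members themselves the highest values were 0.933 for Col4a1 with Col4a2 and 0.905 for Lamc1 with Nid1, and the lowest was -0.562 for Lama5 with Lamc1.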

How the data were processed

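The deposited values were raw counts of UMIs per gene and barcode, which the authors made with Cell Ranger (7.1.0 in the submitters' processing notes and the matrix header; the paper gives another version) and did not normalize. The genome build and whether intron reads were counted are not given in the sources used here. The deposited matrices held 28146691 UMIs in 9935 Sham barcodes and 29108986 in 9932 TAC barcodes, and 32 barcode sequences occurred in both. Counts were analysed with scanpy 1.11.5, scipy 1.17.1 and Python 3.11.15. Barcodes with under 200 genes (1 per library) and Scrublet doublets (469 and 472, 4.72% and 4.75%) were removed. Each library was clustered by itself (2000 variable genes, 30 principal components, 15 neighbours, Leiden resolution 1) without the members, the 49 other basement membrane genes and mitochondrial genes. A cluster took a name when 3 or more markers of that type had UMIs in 10% or more of its cells and stood 1 or more log2 units above the mean of the other clusters, a rule set after a first clustering had been seen. The members and lists were chosen with earlier results of these data known.

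Member UMIs were summed over a type, divided by its total and scaled to 1000000, and intervals of levels are exact Poisson. Shares have Clopper-Pearson intervals and ratios exact conditional binomial intervals. Floors use 3 counts. For shares of cells, cells were thinned to 1000 UMIs. Named were all members, list genes past 1.5-fold with an interval off 1 (up to 4 per list and type), and the 3 genes most like each member; exceptions are stated, and 2 genes that met these rules are not reported here. Of the gene IDs, 94.1% were in GENCODE M21. RefSeq (GRCm38.p6) held promoter windows for 7 members. Scripts were tested on simulated data. Alternatives were other filters, clusterings, scalings, minimums, folds and thinning depths.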

Additional observations from a re-analysis of the deposited data

Results flagged for a closer look

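Lama2 was singled out because its level in the TAC library, relative to Sham, was above 1 in a cell type and below 1 in others, by a fold of at least 5/4 and with intervals off 1. The ratio was 1.41 in cardiomyocytes, against 0.745 in fibroblasts, 0.723 in endothelial cells and 0.760 in macrophages. With 1 library per condition the difference between the types was not tested. Lama2 in macrophages was at 2.44% and 2.49% of its fibroblast level, below the 5.30% and 4.89% of the fibroblast markers, so that ratio cannot be told apart from background RNA. In endothelial cells Lama2 was at 3.56% and 3.45%, below the 7.96% of those markers in each library, so the same holds for the endothelial ratio. The endothelial ratio was 0.837, short of the fold of 5/4, without the cell of most Lama2 UMIs in each library. The cardiomyocyte ratio was 1.03 with types assigned cell by cell. No other member met this rule.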

How the results depend on the processing

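A level, ratio or share of cells was taken as moved when it left the counting interval of the reported value. Of the ratios of single members 575 stayed, 18 moved and 1 reversed, not counting the ratios within joint clusters, which cover part of a type's cells and moved more often. That ratio was Nid1 in cardiomyocytes, which became 0.653 with types assigned cell by cell from markers. The highest type changed for Nid2 in TAC, from fibroblasts to macrophages, under a minimum of 500 genes per cell, under a limit of 25% on mitochondrial UMIs and under joint clustering of the libraries, and for Lamb2 in Sham, from endothelial cells to cardiomyocytes, with no doublets removed. Of the levels, 69 of 1000 moved, 40 with no doublets removed and 29 with types assigned cell by cell. Of the shares of cells with a UMI, which follow depth by construction, 269 of 300 moved when cells were thinned to 500 or 2000 UMIs or not at all.

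The counts of members past 1.5-fold are small, and 26 of 170 recomputed counts differed by more than 1.5 times from the reported count or were at 0 in only 1 of the 2. With no doublets removed, 3 members were lower in TAC endothelial cells and 2 in pericytes. With types assigned cell by cell from markers, 0 were higher and 2 lower in cardiomyocytes, 0 lower in fibroblasts and 0 lower in macrophages. At resolution 2, 2 were lower in pericytes and 0 in macrophages, and with 3000 variable genes and 50 principal components 1 was lower in macrophages. With each cell given equal weight 2 were lower in cardiomyocytes. With at least 20 UMIs, or 1 UMI in each library, 2 were lower in pericytes, and with at least 200 UMIs 0 were higher in cardiomyocytes, 1 lower in fibroblasts and 0 lower in macrophages. At 2-fold, 0 were higher and 0 lower in cardiomyocytes, 1 lower in fibroblasts, and 0 lower in endothelial cells, pericytes and macrophages. At a fold of 5/4, 2 were higher and 4 lower in cardiomyocytes, 3 lower in fibroblasts (against 2) and 3 in endothelial cells, 2 in pericytes and 5 in macrophages. The causes of these shifts were not tested, other than the fewer or more genes and the other fold that a setting itself brings.

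No paired analysis was possible because Sham and TAC had 1 library apiece. No library was left out for that reason, and library and condition cannot be told apart. Members with under 50 UMIs in a type were limited by depth.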
